A study of Mus musculus with 17 samples.

Results

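The genes of the cytosolic ribosome were followed in CD8+ T cells, the cytotoxic lineage of T lymphocytes, taken from the brain and the blood of mice. The family was chosen with earlier results of these data known, and its members were taken by a rule on names. Their symbols begin with Rpl, Rps or Rplp and go on with a digit, without rows named as pseudogenes or Rps6k kinases. The rule gave 91 of the 48709 genes listed, 54 named for the large ribosomal subunit and 37 for the small subunit. Of these, 86 had at least 1 count, 82 had counts in every library and 81 passed the filter on low counts and were tested.

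RNA sequencing counts covered 17 libraries, of which 10 were WT (5 brain, 5 blood) and 7 were APP-PS1 (4 brain, 3 blood). WT (wild type) mice were the controls, all of them female, whereas male mice gave 3 of the 4 APP-PS1 brain libraries and 2 of the 3 from APP-PS1 blood. APP-PS1 mice carry APP Swedish and PS1 dE9, an amyloid precursor protein of mouse and human sequence and a human presenilin 1, both mutant, and the prion protein promoter drives them in neurons of the central nervous system, so the T cells are not the cells that the transgenes target. The series calls the mice aged; ages were not used here. Sex and strain largely coincided, and the labels do not pair brain with blood libraries. The p-values therefore measure only the spread between these libraries, which may in part be technical.

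The cytosolic ribosome makes protein in every cell. Its small subunit reads the messenger RNA, its large subunit joins the amino acids, and a stalk made of Rplp0, Rplp1 and Rplp2 on the large subunit calls in the elongation factors. Ribosomal protein mRNAs are among the most abundant of a lymphocyte, and most of them begin with a terminal oligopyrimidine (TOP) tract, a run of C and T bases at the cap through which the kinase mTOR and the RNA-binding protein Larp1 set their translation. Resting naive T cells hold many of these mRNAs untranslated, and activation brings them into use.

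Sequences around listed start sites are printed to show where a run of C and T bases does and does not cover the listed start. RefSeq promoter entries (GRCm38.p6) matched 66 of the 91 genes, 10 of them with several listed starts. Each line below runs from 15 bases before the listed start to the last of the 15 bases that begin with it, on the coding strand, with the unbroken run of C and T bases over the start in capitals, or only the start base where no run of at least 5 bases covers it. Such a run covers the start in the first 5 windows and not in the last 4, and all belong to members whose values are described further on.
Rps27 (chr3:90213634-90213663, minus strand): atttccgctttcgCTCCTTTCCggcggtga
Rps27rt (chr9:114982725-114982754, minus strand): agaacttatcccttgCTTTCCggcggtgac
Rps18 (chr17:33955651-33955680, minus strand): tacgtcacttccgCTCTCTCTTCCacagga
Rps10 (chr17:27635230-27635259, minus strand): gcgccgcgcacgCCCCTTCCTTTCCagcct
Rpl35 (chr2:39005117-39005146, minus strand): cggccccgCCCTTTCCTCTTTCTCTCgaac
Rps27l (chr9:66946071-66946100, plus strand): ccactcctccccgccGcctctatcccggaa
Rpl4 (chr9:64173372-64173401, plus strand): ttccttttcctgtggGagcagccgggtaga
Rplp0 (chr5:115559452-115559481, plus strand): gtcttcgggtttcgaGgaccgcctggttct
Rpl22l1 (chr3:28805493-28805522, plus strand): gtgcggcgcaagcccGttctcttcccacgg

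A run of at least 5 pyrimidines covered a listed start in 21 of the 66 genes (31.8%) and in 11.8% of all 27025 genes with an entry. In the 300-base windows, from 250 bases before the start to 50 bases from it on, the ETS family core CCGGAAG stood on either strand in 37.9% of these genes and in 9.93% of all genes. The Sp1 core GGGCGG stood on either strand in 60.6% and 38.2%, the YY1 core AAGATGGC in 9.09% and 3.19%, and the TATA box letters TATAAA in 10.6% and 15.7%. These are matches of letters near annotated starts, and the window of Rpl4 shows a pyrimidine run that ends a few bases before the listed start. In the windows of Rpl22l1 and Rps27l a run begins directly after it. A window without a run over the listed start therefore does not show that the mRNA lacks a TOP tract.

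The libraries were shallow, at 27646 to 214670 counts. APP-PS1 blood, at 39055 to 46336 counts, lay below all WT blood libraries, at 62604 to 214670. T cell markers summed to 4554 to 8346 CPM (counts scaled to the same total in each library) over all libraries, and Cd4, which defines the other main T cell lineage, was at 0. The summed level of the 7 naive T cell markers was 640 to 1062 CPM in the brain groups and 1041 to 4532 in the blood groups, and 4 of 5 red cell markers had counts, with sums of 36.2 to 873 CPM in brain and 2152 to 9967 in blood (Alas2 was at 0). Of the naive markers 3 were called lower in brain in each strain, and of the 4 tested red cell markers 4 in WT and 3 in APP-PS1 mice. Over all tested genes 0.761% were called in WT and 0.549% in APP-PS1 mice. Averaged over strains, where 2.62% of all genes were called, 6 naive markers were called lower in brain. Of the 6 tested T cell markers 4 had positive and 2 negative values in that comparison, and 1, Cd3g, was called higher in brain. The naive marker Ccr7 was called higher in APP-PS1 than in WT blood, the 1 gene called there. The B cell marker Igkc was called lower in WT brain than in WT blood. In the difference of brain against blood between strains Igkc was called with a positive log2 fold change, 5.56. Summed levels of 9 microglia and myeloid markers were 0 to 237 CPM with C1qa, P2ry12 and Tmem119 at 0, those of 6 B cell markers 40.8 to 574 CPM with Ms4a1 at 0, those of 2 platelet markers 0 to 108 CPM, and those of 3 neuron and oligodendrocyte markers 0 to 196 CPM. In bulk libraries fewer cells of a type and less RNA per cell cannot be told apart. The part of these cell mixtures in the values below was not tested.

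Ribosomal protein genes took up 240543 of 1540927 counts, 15.6% of the data. Shares per library were 15.2, 16.2, 12.2, 15.3 and 18.4% in WT brain, 17.7, 13.9, 15.7, 17.2 and 10.3% in WT blood, 13.7, 14.005, 15.2 and 16.9% in APP-PS1 brain and 16.1, 19.3 and 13.9% in APP-PS1 blood. The 4 groups overlapped. WT brain had 15.5% ± 2.23 (SD, n = 5), WT blood 15.0% ± 3.01 (SD, n = 5), APP-PS1 brain 15.0% ± 1.44 (SD, n = 4) and APP-PS1 blood 16.4% ± 2.69 (SD, n = 3). Wilson 95% intervals reached at most 0.41 percentage points to either side, for counting error only, so libraries of 1 group differed by more than counting error.

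**Figure D1:**
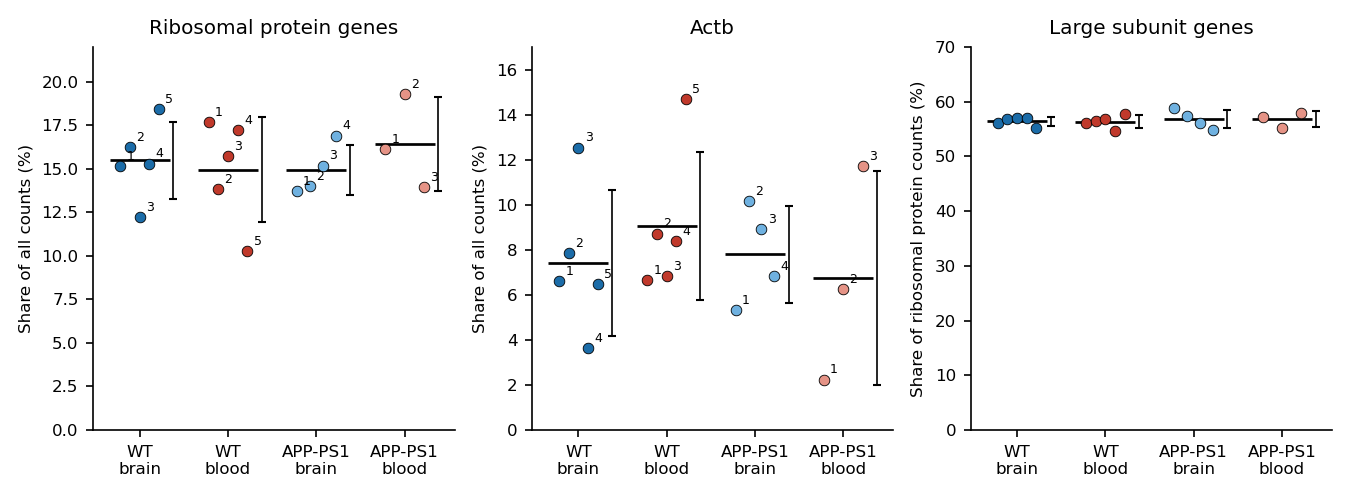
Share of all counts in the 91 ribosomal protein genes (left), share of all counts in Actb (middle) and share of large subunit genes among ribosomal protein counts (right), in percent, 1 point per library with its replicate number in the left and middle plots; lines are group means and bars SD. The ribosomal protein shares of the 4 groups overlap, WT blood replicate 5 is lowest at 10.3% and highest for Actb at 14.7%, and the right plot stays between 54.7 and 58.8%.

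In the libraries with the lowest and highest shares, most members lay on the same side of their own median. These libraries were picked by the share itself, so this was likely in advance. Other genes were not counted in this way, and whether the pattern is particular to the members was not tested. WT blood replicate 5, with the lowest share, had 75 of the 81 tested members below their own median over the 17 libraries, and WT brain replicate 3, with the second lowest share, had 67. At the other end WT brain replicate 5 had only 5 members below their median and APP-PS1 blood replicate 2 had 10. The same 2 low libraries gave the beta-actin gene Actb 14.7 and 12.5% of their counts, against a median of 6.82% over all libraries, and WT blood replicate 5 had the lowest mitochondrial transcript share, 1.53% in a range up to 3.34%. With Actb counts left out of the totals the group means were 16.7, 16.4, 16.2 and 17.6% in the order above. Without these 2 libraries the WT means were 16.3% in brain and 16.1% in blood.

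The balance of the subunits varied less. Large subunit genes held a mean ± SD of 56.5% ± 0.815 of the ribosomal protein counts (n = 5, WT brain), 56.4% ± 1.16 (n = 5, WT blood), 56.8% ± 1.70 (n = 4, APP-PS1 brain) and 56.8% ± 1.46 (n = 3, APP-PS1 blood). The libraries ran from 54.7 to 58.8%, with overlap of all groups. The 3 stalk genes together held 3.27 to 5.03% of the ribosomal protein counts, again with overlap of all groups.

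Levels of single genes, per kilobase of 1 annotated transcript each, spanned a wide range. Rps27, a zinc finger protein of the small subunit, led with 22613 ± 4191 CPM per kilobase (SD, n = 17), followed by its retrogene Rps27rt with 19784 ± 3976 (SD, n = 17). The coding sequences of both are identical, so how their reads are split, and with it each level, is uncertain. Next came Rpl32 with 9979 ± 1974, Rps29 with 7657 ± 1741, Rpl41 with 7567 ± 1560, Rpl13 with 7315 ± 1468 and Rps19, known from Diamond-Blackfan anaemia, with 6943 ± 1678 (SD, n = 17 each). Rps29, Rpl41, Rpl13 and Rps19 lay within 1 SD of each other. The 10 members with most counts, among them Rps27, Rps27rt, Rpl13, Rpl4, Rpl32 and Rpl35, held 33.5% of the family's counts. At the low end, with values per kilobase, were Rps27l with 413 ± 151 and Rpl7l1 with 66.0 ± 39.8 (SD, n = 17 each). Lengths rest on the transcript chosen: Rps20, whose principal transcript is annotated at 3706 bases, had 260 ± 106 CPM per kilobase (SD, n = 17).

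The 10 members that were not tested are paralogues or rows with few counts. Rps4l, Rps12l1, Rps3a3, Rps3a2 and Rpl3l had no count. Over all libraries together 0 counts allow a level of up to 1.95 CPM (3 counts, for counting error only). Rps12l1 matched Rps12 at 100% identity, and Rps3a2 and Rps3a3 matched Rps3a1 at 99.5 and 98.9%. How reads are split between these is uncertain, so that limit may not hold for them. Rpl3l is a muscle form of Rpl3, the large subunit protein near the site of peptide bond formation. Rpl10l and Rpl39l, forms known from the testis, had 2 counts each, Rps12 had 7, Rpl6l 24 and Rps19bp1, a binding protein of Rps19, 76 counts. Of the 81 tested members, 79 reached the filter level in at least 3 libraries of every group. Rps27l missed it in APP-PS1 blood, and Rpl7l1 missed it in every group.

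The first comparison asks what differs between CD8+ T cells in brain and in blood of WT mice. None of the 81 members was called at an adjusted p under 0.05 by edgeR's quasi-likelihood test, with 0.761% of the 2366 tested genes called. At an unadjusted p under 0.05 there were 2 members (Rpl29 and Rpl12), with 7.27% of all genes. The median log2 fold change of the members was 0.01, against 0.02 over all tested genes. Of the members 46 had a positive value (1220 of 2366 genes), a number that ran from 16 to 54 over the alternatives. The 95% interval of the log2 fold change lay within -1 to 1 for 78 of 81 members and for 702 of 2366 genes. Members had a median SE of 0.232 against 0.459 over all genes, and a lower one in each other comparison too. Such counts therefore also differ by precision and do not show that members were steadier. Over the same libraries Klf2, a factor of naive and resting T cells, was lower in brain, with a log2 fold change of -2.46 (SE 0.326, edgeR adjusted p = 1.29e-06).

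Rpl29, a small basic protein of the large subunit, had 830, 677, 293, 751 and 835 CPM in WT brain and 1057, 902, 1193, 1102 and 854 in WT blood. It was the only member whose WT groups did not overlap, every brain library lying lower (1.14% of all genes showed this), and 0 members were higher without overlap (1.48% of all genes). Its log2 fold change was -0.64 (SE 0.251, edgeR adjusted p = 0.387), which missed the threshold. Rpl29, Rpl12, Rpl14, Rpl6, Rpl7a, Rpl11 and Rpl36 are named here because of their values. Rpl12, of the stalk base, had 1429, 1389, 997, 948 and 1628 CPM in WT brain and 927, 775, 1238, 878 and 619 in WT blood. The WT groups of Rpl12 overlapped, and its log2 fold change was 0.47 (SE 0.232, edgeR adjusted p = 0.661). Rps27, the most abundant member, had a mean ± SD of 7712 ± 974 CPM (n = 5, WT brain) and 7319 ± 1719 CPM (n = 5, WT blood), and its log2 fold change of 0.01 had a 95% interval from -0.39 to 0.41.

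**Figure D2:**
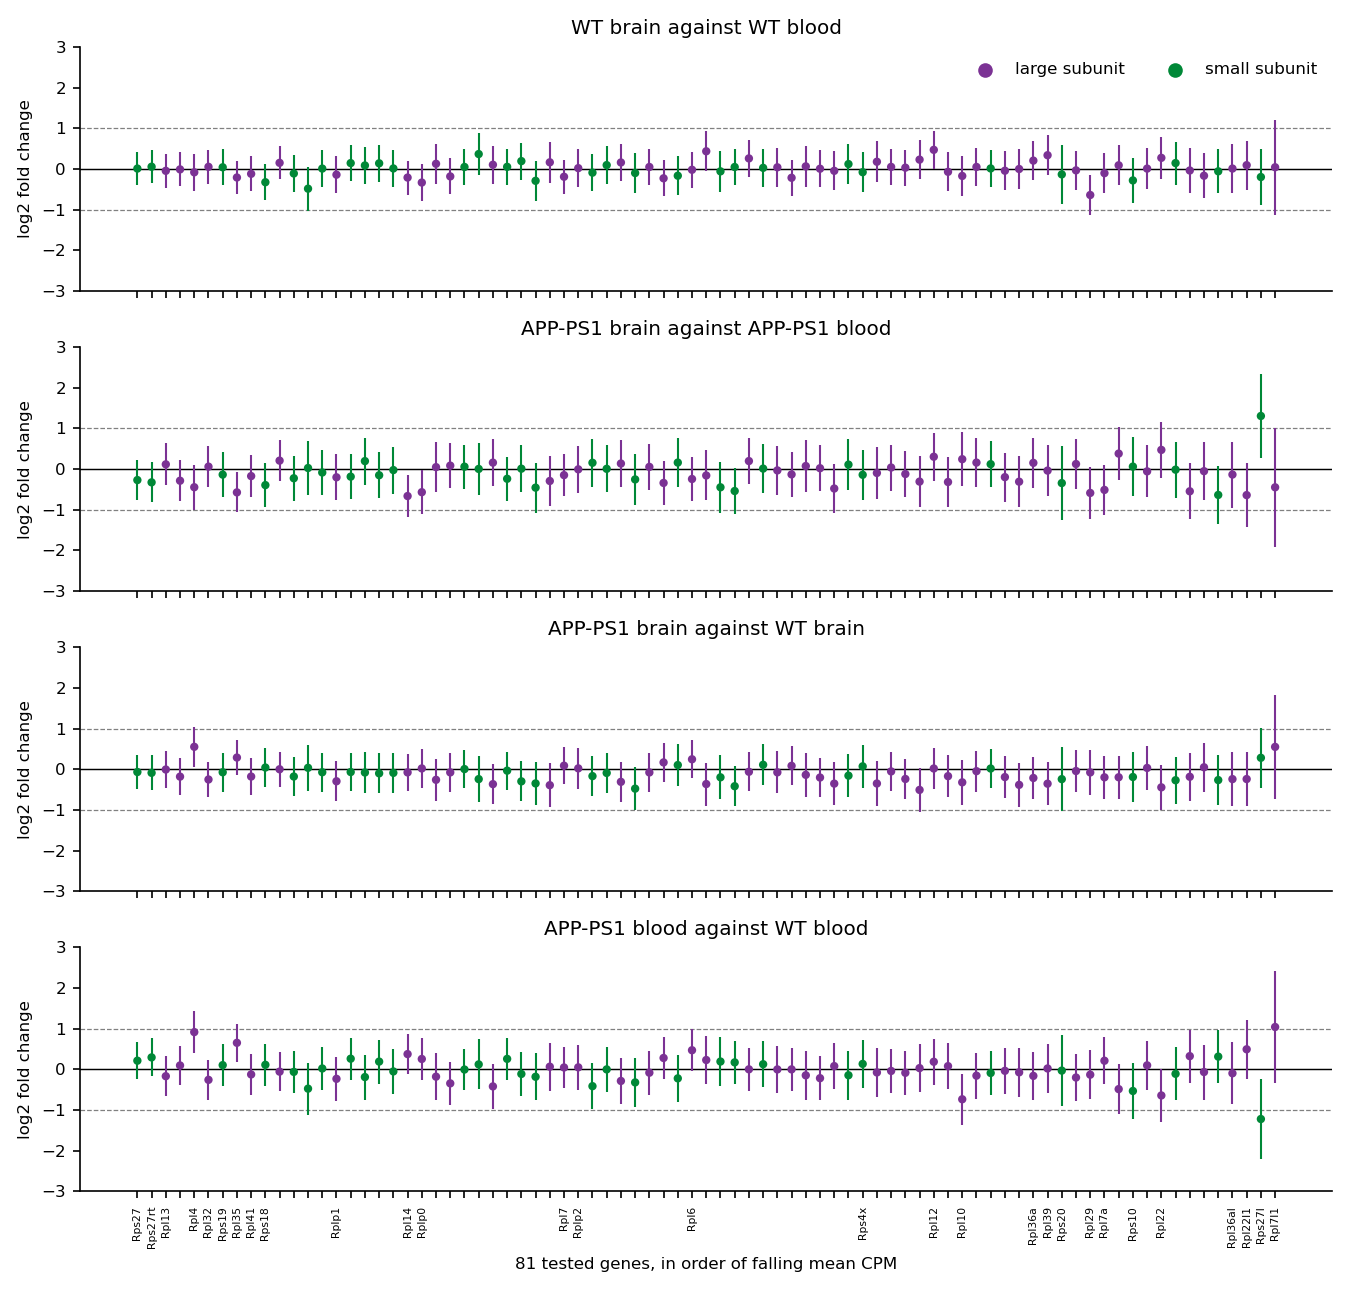
Log2 fold change (vertical axis) of the 81 tested genes in 4 comparisons, first group minus second, with 95% intervals from the edgeR fit, ordered along the horizontal axis by falling mean CPM, with only some genes labelled; purple marks the large and green the small subunit, and dashed lines mark a change of 1 on the log2 scale. In WT brain against WT blood 78 of 81 intervals stay between the dashed lines, and Rpl7l1, the tested member with the lowest level per kilobase, has the widest interval in all 4 comparisons.

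Brain against blood within APP-PS1 mice likewise called 0 of 81 members, with 0.549% of all genes called. At an unadjusted p under 0.05 there were 4 members (Rpl14, Rps27l, Rpl35 and Rplp0), with 10.7% of all genes. The median log2 fold change was -0.09 against 0.03 over all genes, and 32 members had a positive value (1224 of 2366 genes), from 16 to 57 over the alternatives. The interval lay within -1 to 1 for 63 of 81 members and 271 of 2366 genes. Rps27l was higher in brain with no overlap (5.07% of all genes), and 3 members, among them Rpl14 and Rpl7a, were lower with no overlap (3.97% of all genes).

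Rpl14, a large subunit protein on the solvent side, had 1989, 1803, 2115 and 1989 CPM in APP-PS1 brain and 2663, 3410 and 3090 in APP-PS1 blood. All 3 blood libraries lay above all 4 brain libraries. The log2 fold change of Rpl14 was -0.66 (SE 0.255, edgeR adjusted p = 0.287, and 0.0743 at the lowest over the alternatives). In WT mice the Rpl14 groups overlapped and the value was -0.21 (SE 0.208, edgeR adjusted p = 0.886). Rpl7a, a large subunit protein, had a log2 fold change of -0.51 (SE 0.307, edgeR adjusted p = 0.578) in APP-PS1 brain against blood. Neither gene passed the test.

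The third comparison asks how brain CD8+ T cells differ between the strains. None of the 81 members was called in APP-PS1 brain against WT brain, and none of the 2366 genes was (0%); 98 genes (4.14%), among them 1 member, Rpl4, had an unadjusted p under 0.05, and DESeq2 and limma also called 0 genes. No member was higher without overlap (0.845% of all genes) or lower without overlap (0.719%). The median log2 fold change was -0.10 against -0.04 over all genes; 20 members had a positive value (1103 of 2366 genes), from 9 to 39 over the alternatives. The interval lay within -1 to 1 for 74 of 81 members and 551 of 2366 genes.

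For blood, APP-PS1 against WT, 0 of 81 members were called, with 0.0423% of all genes called. At an unadjusted p under 0.05 there were 4 members (Rpl4, Rpl35, Rps27l and Rpl10), with 8.03% of all genes. Rpl4 and Rpl6 were higher in APP-PS1 blood without overlap (3.25% of all genes) and Rps27l was lower without overlap (3.68%). The median log2 fold change was -0.03 against -0.05 over all genes. Positive values numbered 35 (1119 of 2366 genes), from 10 to 68 over the alternatives. The interval lay within -1 to 1 for 71 of 81 members and 306 of 2366 genes.

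Rpl4, a large subunit protein with a long arm that lines the exit tunnel, had the greatest spread beyond counting error of the members with a mean of at least 100 CPM. It had 3416, 3378, 6333, 3938 and 3558 CPM in WT brain and 3620, 2839, 4136, 5766 and 4341 in WT blood. In APP-PS1 brain it had 11105, 5667, 4622 and 4260 CPM and in APP-PS1 blood 12674, 6216 and 6715. All 3 APP-PS1 blood libraries lay above the 5 WT blood libraries, and in brain APP-PS1 replicate 1 stood far above the rest. The log2 fold change was 0.91 in APP-PS1 blood against WT blood (SE 0.261, edgeR adjusted p = 0.186) and 0.55 in APP-PS1 brain against WT brain (SE 0.244, edgeR adjusted p = 0.999). Leaving out APP-PS1 brain replicate 1 brought the brain value to 0.24, and leaving out APP-PS1 blood replicate 1 brought the blood value to 0.61. Over the alternatives the lowest adjusted p of Rpl4 was 0.0758 in blood and 0.729 in brain.

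**Figure D3:**
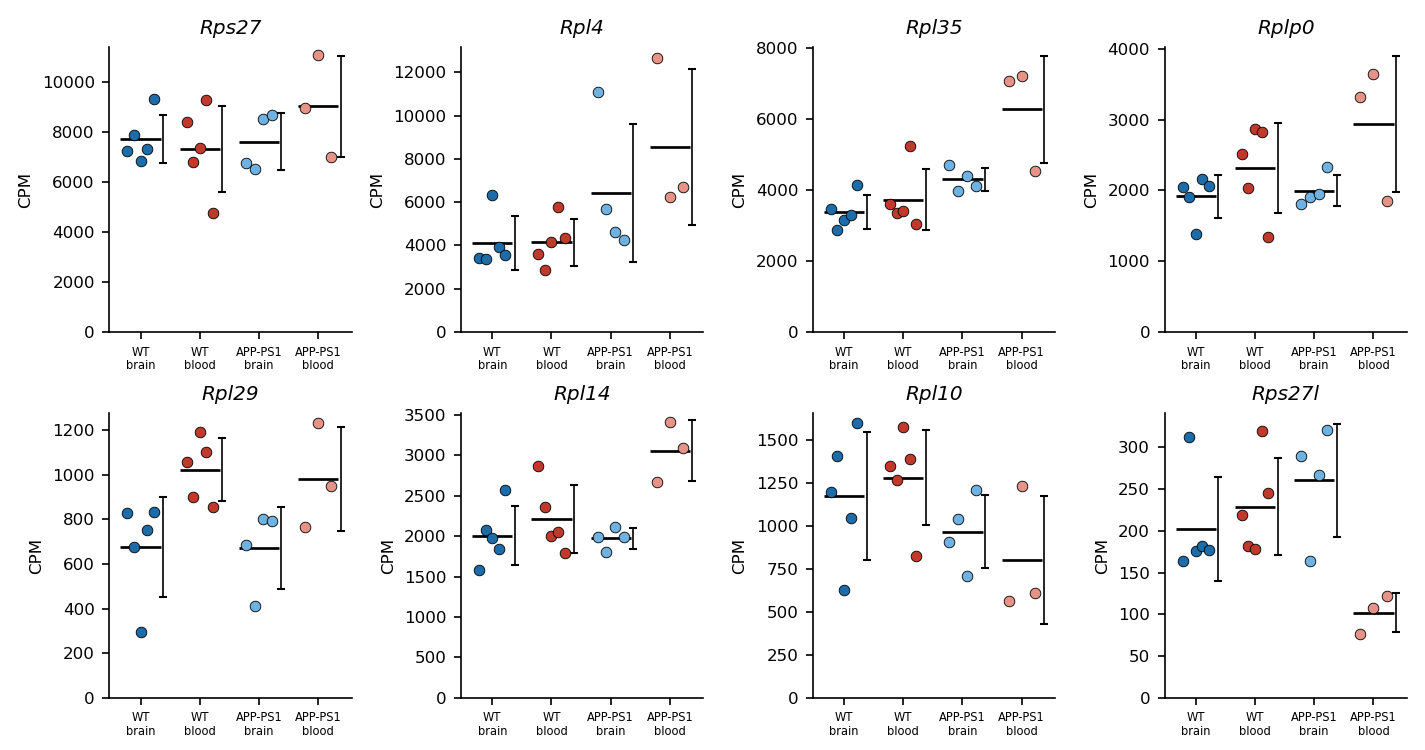
CPM of 8 ribosomal protein genes (vertical axes, from 0) in the 17 libraries by group; points are libraries, lines group means and bars SD. Rpl4 is highest in 1 library of each APP-PS1 group (11105 and 12674), Rps27l is lowest in the 3 APP-PS1 blood libraries, and Rpl29 is lower in all WT brain than in all WT blood libraries.

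Rpl35, a large subunit protein at the tunnel exit, had 3620, 3353, 3423, 5239 and 3035 CPM in WT blood and 7067, 7230 and 4525 in APP-PS1 blood. The highest WT library lay above the lowest APP-PS1 library, and the log2 fold change was 0.65 (SE 0.231, edgeR adjusted p = 0.414). In APP-PS1 brain it had 4702, 3969, 4408 and 4127 CPM, for a log2 fold change of -0.57 against APP-PS1 blood (SE 0.244, edgeR adjusted p = 0.378). Without APP-PS1 blood replicate 2 the Rpl35 values were 0.43 against WT blood and -0.37 for brain against blood in APP-PS1 mice. Rpl6, a large subunit protein, had 1946, 1726 and 1922 CPM in APP-PS1 blood, above the 845 to 1597 of WT blood, and its log2 fold change was 0.47 (SE 0.257, edgeR adjusted p = 0.676).

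The level of Rpl4 was also set against the depth of the library. The 2 shallowest libraries, APP-PS1 brain replicate 1 at 27646 counts and APP-PS1 blood replicate 1 at 39055, had its 2 highest levels, and the deepest, WT blood replicate 1 at 214670 counts, had 3620 CPM. With log2 total counts as a term beside the 4 groups, chosen after the data were seen, the fitted value of Rpl4 was -0.46 on the log2 scale per doubling of the total (SE 0.117, edgeR adjusted p = 0.256), the second lowest p of 2366 genes. The same fit gave 0.29 for Rpl4 in APP-PS1 blood against WT blood (SE 0.279, edgeR adjusted p = 0.937) and 0.25 in brain (SE 0.217, edgeR adjusted p = 0.998). In the WT libraries alone the depth value was -0.41 (SE 0.156, edgeR adjusted p = 0.915), and without the 2 shallowest libraries it was -0.33 (SE 0.142, edgeR adjusted p = 0.793). By p Rpl4 ranked 18 of 1510 genes in the former fit and 70 of 2731 in the latter. Its depth value was not called in any of these fits. Strain and depth are confounded in blood, where all APP-PS1 libraries are shallower, and cannot be told apart there.

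Other members had depth values of the opposite sign. Rps10, of the small subunit beak, had 293 CPM in WT brain replicate 3 and 434 in APP-PS1 brain replicate 1, each the shallowest of its group, and 1295 in the deepest library. APP-PS1 blood replicate 1, also the shallowest of its group, had 717 CPM, above the 540 and 657 of the other APP-PS1 blood libraries. Over all libraries Rps10 had a fitted value of 0.70 per doubling of the total (SE 0.16, edgeR adjusted p = 0.0947). Without the 2 shallowest libraries the value was 0.80 (SE 0.184, edgeR adjusted p = 0.0358), which passed the threshold, 1 of 80 members tested in a fit that called 0.11% of genes. The fit over all libraries called 0 of 81 members and 0% of genes, and the fit of WT libraries 0 of 80 members and 0% of genes. At an unadjusted p under 0.05 the 3 fits had 21 of 81 members over all libraries (6.13% of genes), 8 of 80 in WT libraries (4.9%) and 17 of 80 without the 2 shallowest (5.49%). Of those 21 members 20 had a positive depth value, as had 86 of the 145 genes at that p, among them Rpl11, which binds the 5S ribosomal RNA, with 0.54 (SE 0.146, edgeR adjusted p = 0.256), and Rpl36 with 0.45 (SE 0.141, edgeR adjusted p = 0.441). Over all tested members and genes, whatever their p, 70 of 81 and 1198 of 2366 depth values were positive, with medians of 0.17 and 0.01, and members are not independent of each other. What sets these values was not tested.

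**Figure D4:**
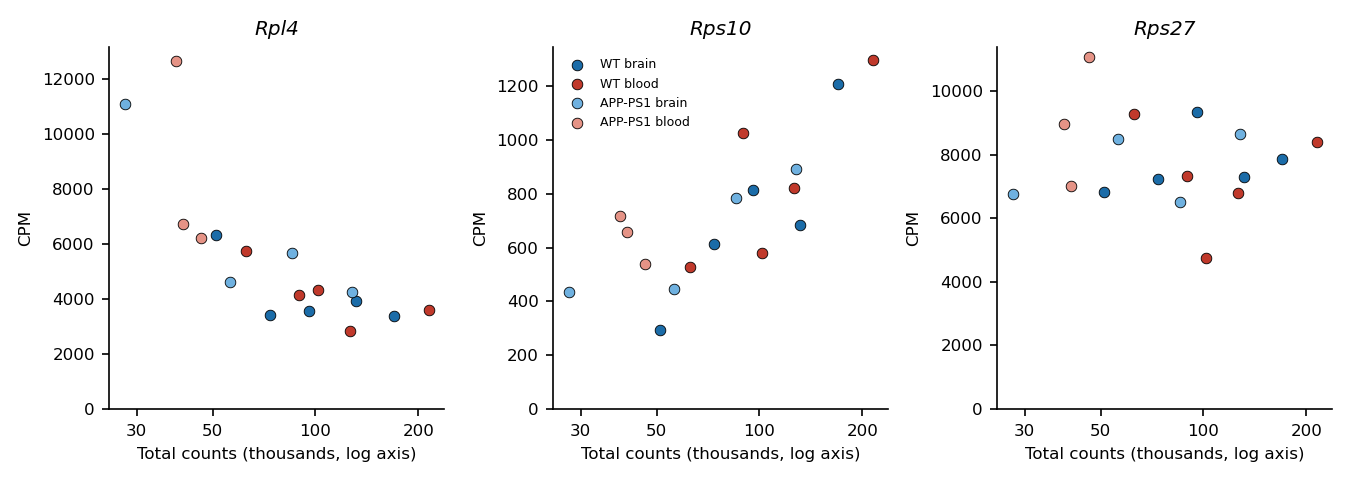
CPM (vertical axes, from 0) of Rpl4, Rps10 and Rps27 against the total counts of each library (horizontal log axis, in units of 1000 counts); each point is 1 library, coloured by group. Rpl4 is highest in the 2 shallowest libraries, Rps10 is highest in the deepest, and the depth value of Rps27 is 0.10 on the log2 scale (SE 0.118).

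Averaged over both strains, brain against blood called 0 of 81 members, while 2.62% of all genes were called. At an unadjusted p under 0.05 there were 6 members, with 13.4% of all genes. Rpl29 came nearest, with a log2 fold change of -0.61 (SE 0.204, edgeR adjusted p = 0.0964). Rpl14 had -0.44 (SE 0.165, edgeR adjusted p = 0.167) and Rplp0 -0.45 (SE 0.176, edgeR adjusted p = 0.185). Rpl35 had -0.39, Rps18 -0.36 and Rpl12 0.39, with edgeR adjusted p-values of 0.217, 0.352 and 0.351. The members' median was -0.04 against 0.03 over all genes, and the interval lay within -1 to 1 for 78 of 81 members and 931 of 2366 genes. Whether brain and blood differed otherwise in APP-PS1 than in WT mice was tested as the difference of both comparisons. It called 0 members, with 0.0423% of all genes called, and 1 member, Rps27l, had an unadjusted p under 0.05, with 4.95% of all genes. Its precision was lower: the interval lay within -1 to 1 for 48 of 81 members and 121 of 2366 genes.

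No stalk gene passed the test in any of the 6 comparisons, in which 0 to 2.62% of all genes were called. Rplp0, the scaffold of the stalk, had 2055, 1913, 1388, 2162 and 2066 CPM in WT brain and 2511, 2032, 2865, 2827 and 1346 in WT blood. It had 1809, 1908, 1955 and 2326 CPM in APP-PS1 brain and 3329, 3647 and 1849 in APP-PS1 blood. Groups overlapped in both strains, and the log2 fold change of brain against blood was -0.33 in WT (SE 0.222, edgeR adjusted p = 0.777) and -0.57 in APP-PS1 mice (SE 0.272, edgeR adjusted p = 0.442). Without APP-PS1 blood replicate 2 the latter was -0.29 (edgeR adjusted p = 0.813). Its partners Rplp1 and Rplp2, the acidic proteins that contact the elongation factors, had averaged values of -0.17 (95% interval -0.53 to 0.19) and 0.01 (95% interval -0.36 to 0.38).

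The 4 X-linked members are given because the sexes of the strains were unequal. Whether their levels differ by sex was not tested. Rps4x had log2 fold changes of 0.07 in APP-PS1 against WT brain (95% interval -0.46 to 0.60) and 0.13 in blood (-0.45 to 0.72). Rpl36a had -0.22 in brain (-0.74 to 0.30) and -0.16 in blood (-0.75 to 0.42), and Rpl39 had -0.36 in brain (-0.88 to 0.17) and 0.02 in blood (-0.57 to 0.61). Rpl10, which joins the large subunit late in its assembly, had 1346, 1265, 1572, 1390 and 825 CPM in WT blood, all female. In APP-PS1 blood it had 563 (male), 1230 (male) and 608 CPM (female). Those groups overlapped, APP-PS1 replicate 2 lying among the WT libraries, and the log2 fold change was -0.74 (SE 0.314, edgeR adjusted p = 0.533). Without that library it was -1.31 (edgeR adjusted p = 0.174). None of the 4 genes passed the test, and sex and strain cannot be told apart in most of these libraries.

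Among the paralogues, Rps27l is a near relative of Rps27 that p53 is known to induce, and Rps27rt is a retrogene of Rps27. Coding bases 4 to 63, counted from 1 at the first base of the start codon, are printed on the coding strand of GRCm38 with capitals where Rps27 and Rps27l differ (19 positions), because coding reads can be told apart between Rps27 and Rps27l but not between Rps27 and Rps27rt.
Rps27 (gene at chr3:90212522-90213651, minus strand): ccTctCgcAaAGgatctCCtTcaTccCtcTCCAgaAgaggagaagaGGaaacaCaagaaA
Rps27rt (gene at chr9:114982366-114982739, minus strand): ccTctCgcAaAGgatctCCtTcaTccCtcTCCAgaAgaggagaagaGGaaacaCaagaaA
Rps27l (gene at chr9:66946086-66949516, plus strand): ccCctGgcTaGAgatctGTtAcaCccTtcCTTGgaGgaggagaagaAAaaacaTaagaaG

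The coding sequences of Rps27 and Rps27rt were identical over all 252 bases, whereas Rps27 and Rps27l differed at 60 of them (76.2% identity). Rps27l had 163, 312, 176, 182 and 177 CPM in WT brain, 219, 182, 178, 320 and 246 in WT blood and 289, 164, 267 and 321 in APP-PS1 brain. In APP-PS1 blood it had 76.8, 108 and 122 CPM, below each of the other 14 libraries, but these are only 3, 5 and 5 counts. The log2 fold change was -1.22 in APP-PS1 blood against WT blood (SE 0.497, edgeR adjusted p = 0.495) and 1.31 in APP-PS1 brain against blood (SE 0.518, edgeR adjusted p = 0.319). The difference between the strains was 1.503 (95% interval 0.26 to 2.75, edgeR adjusted p = 0.937), so it was not a call.

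Rpl22, which alpha-beta T cells need for their development, and its paralogue Rpl22l1 had 66.9% identity of coding sequence. In APP-PS1 against WT blood Rpl22 had a log2 fold change of -0.64 (95% interval -1.30 to 0.02) and Rpl22l1 of 0.49 (-0.24 to 1.22), with edgeR adjusted p-values of 0.629 and 0.770. Mean CPM ± SD of Rpl22 were 860 ± 192 (n = 5, WT brain), 679 ± 245 (n = 5, WT blood), 635 ± 192 (n = 4, APP-PS1 brain) and 469 ± 52.6 (n = 3, APP-PS1 blood). Those of Rpl22l1 were 382 ± 120, 343 ± 111, 323 ± 98.0 and 522 ± 269 CPM in the same order. Rpl36a and Rpl36al, 39 coding differences apart, had averaged brain against blood values of 0.18 (95% interval -0.21 to 0.57) and -0.06 (-0.57 to 0.44).

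Near-identical copies limit what the counts of some members mean. Matching principal transcripts at 95% identity over 80% of the shorter one gave 519 genes as copies of 78 members; 35 of these copies had counts, 17748 in all, or 6.87% of member and copy counts together. Between libraries the copies had 5.99 to 8.36 counts per 100 counts of the members. Rps12 had 7 counts, all in WT brain replicate 2, whereas its copy Rps12-ps3 (chr19:59322290-59322783), with an identical coding sequence, had 789 counts and was present in all 17 libraries. Rpl35 had 5919 counts and its copy Gm2000 (chr1:156366040-156366484) 6266. Coding bases 85 to 144 of both are printed on the coding strand because they hold the 1 base, C117T from Rpl35 to Gm2000, by which their 369 coding bases differ.
Rpl35 (gene at chr2:39001580-39005624, minus strand): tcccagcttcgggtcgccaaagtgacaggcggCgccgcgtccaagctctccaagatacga
Gm2000 (plus strand): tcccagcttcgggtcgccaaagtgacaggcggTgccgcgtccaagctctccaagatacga

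Copies held 52.4% of the joint counts for Rpl35, 44.1% for Rpl27, 38.2% for Rpl37a, 27.7% for Rpl41, 27.6% for Rpl36, 21.2% for Rps23 and 16.6% for Rpl10. The assignment of reads that match several places was not given in the sources used here. Single values of these members are therefore uncertain. With copies added to their member before the fit, 0 members were called in each of the 6 comparisons, and Rpl35 had 0.60 in APP-PS1 against WT blood (SE 0.229, edgeR adjusted p = 0.448).

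**Figure D5:**
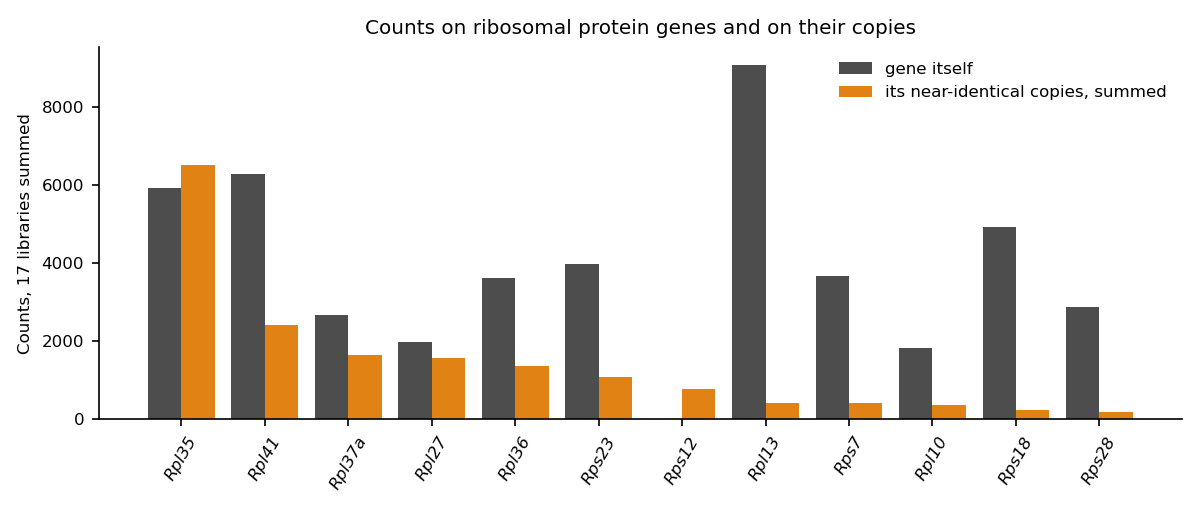
Counts summed over 17 libraries (vertical axis, from 0) for the 12 ribosomal protein genes whose near-identical copies had most counts; grey bars are the gene itself and orange bars its copies. Copies exceed the gene for Rpl35 and Rps12 (7 against 789 counts).

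Genes that work with the cytosolic ribosome were likewise without calls. Over all tested genes 0 to 2.62% were called in the 6 comparisons, so 0 calls in lists this small say little about them. The ribosomal proteins outside the name rule had 0 of 4 called in any of the 6 comparisons, for example Rpsa with 0.13 in WT brain against blood (95% interval -0.33 to 0.59) and Rack1 with -0.07 (-0.56 to 0.42). Calls were 0 of 6 tested elongation factors (Eef1a1, 0.01, -0.42 to 0.44), 0 of 26 initiation factors (Eif1, 0.10, -0.34 to 0.54) and 0 of 9 other TOP mRNAs (Tpt1, -0.15, -0.59 to 0.30), with values and intervals for the same comparison. They were also 0 of 2 snoRNA host genes (Gas5, 0.21, -0.27 to 0.69), 0 of 16 ribosome biogenesis genes (Npm1, -0.08, -0.59 to 0.43) and 0 of 11 regulators of mTOR and TOP mRNAs (Pdcd4, -0.04, -0.68 to 0.61). Of 33 tested mitochondrial ribosomal protein genes, 1 was called, in brain against blood averaged over strains, where 2.62% of all genes were called: Mrpl36 was higher in brain, with a log2 fold change of 2.21 (SE 0.654, edgeR adjusted p = 0.0498).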

How the data were processed

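The authors deposited raw whole-number counts for each gene in each library. The submitters' processing notes list, without roles or order, HTSeq 0.11.2, Bowtie2 2.2.2, FastQC and DESeq2, with GRCm38 as the build. Strand setting and handling of multi-mapping reads were not given in the sources used here. Per the labels' protocols, myelin was removed from brain suspensions on a Percoll gradient, red cells in blood were lysed, and cells were stained with fluorescent antibodies.

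Members and gene lists were chosen with earlier results of these data known. Counts were tested with edgeR 4.0.16 (R 4.3.3): TMM, filterByExpr (about 117 CPM in 3 libraries), robust quasi-likelihood F tests on all 17 libraries, each group with its own mean, and Benjamini-Hochberg adjustment over 2366 genes. Calls needed an adjusted p under 0.05. Standard errors are the absolute log2 fold change over the square root of F. CPM use the total counts; SD are between libraries. Shares got no test. Over 29 pairs of the same group the chi-square per degree of freedom was 2.59 to 5.69, more than counting error alone gives. Each library was counted as 1 sample, although this spread cannot show that each came from a different animal. Copies were found with blastn 2.17.0 on GENCODE M21 transcripts, which matched all 91 identifiers. The steps were tested on simulated data. Figures were drawn with matplotlib 3.10.9.

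Named genes are the 10 members with most CPM, the 5 with the greatest spread beyond counting error, the stalk, X-linked and paralogous members, members with no count, up to 4 genes per pathway list, and any member called in the 6 group comparisons, of which there were none; some of these genes are not reported here. Alternatives were DESeq2 1.42.0, voom with quality weights in limma 3.58.1, RLE size factors, no filter, a filter of 5 CPM, non-robust fits, only the groups compared, sex as a term, scaling outside ribosomal protein genes, leaving out each library and, added after the data were seen, copies summed, total counts as a term, counts outside Actb and leaving out the 2 libraries with the lowest share.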

Additional observations from a re-analysis of the deposited data

Results flagged for a closer look

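Dixon's test was applied to 87 sets of values, the 2 shares and 27 named members in each of the 3 groups with 4 or 5 libraries, and 6 sets had 1 library far from the rest; chance gives about 5% of sets. In WT brain, Rpl4 was 6333 CPM in replicate 3 against 3378 to 3938 in the other 4 libraries, and Rps27l was 311.9 CPM in replicate 2 against 163.3 to 182.1. In WT blood, Rpl35 was 5239 CPM in replicate 4 against 3035 to 3620. In APP-PS1 brain, Rps20, a small subunit protein, was 1488 CPM in replicate 4 against 578.7 to 622.2. In the same group Rpl39 was 687.3 CPM in replicate 1 against 995.2 to 1026, and Rpl7 was 2641 CPM in replicate 1 against 1433 to 1639. APP-PS1 brain replicate 1 is the shallowest library, and WT brain replicate 3 is the shallowest of its group. With log2 total counts as a term, the values per doubling of the total were -0.46 for Rpl4, 0.10 for Rps27l, -0.10 for Rpl35, 0.52 for Rps20, 0.43 for Rpl39 and -0.15 for Rpl7 on the log2 scale, and none passed edgeR's test after adjustment.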

How the results depend on the processing

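The count of called members was 0 in all 6 comparisons under each of the 172 combinations of comparison and alternative, those without 1 library included; the range over leaving out each library was 0 to 0. The lowest adjusted p of any member was 0.0604, for Rpl29 in brain against blood averaged over strains with DESeq2, which adjusted over 4352 genes there. Group means of the ribosomal protein share moved by less than 1 SD under every alternative run. Leaving out 1 library gave 14.7 to 16.3% in WT brain, 14.3 to 16.1% in WT blood, 14.3 to 15.4% in APP-PS1 brain and 15.0 to 17.7% in APP-PS1 blood. Without paralogues and retrogenes outside the canonical subunits the large subunit share was 58.9% in WT brain, 58.7% in WT blood, 59.4% in APP-PS1 brain and 59.6% in APP-PS1 blood, an alternative that leaves out Rps27rt among others. Leaving out 1 library kept it at 56.3 to 56.8%, 56.0 to 56.8%, 56.1 to 57.5% and 56.2 to 57.6% in the same order.

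The 18 log2 fold changes with an unadjusted p under 0.05 kept their sign under every alternative run, and none became a call. Rpl4 in APP-PS1 against WT blood ran from 0.29 with total counts as a term to 1.09 without WT blood replicate 4, and in brain from 0.14 with sex as a term to 0.78 without the 2 libraries of lowest share. The number of members with positive values was not stable. In APP-PS1 against WT blood it was 35, but 10 with no filter, 47 with sex as a term and 68 with total counts as a term, and with no filter the median of all tested genes was itself -0.32. Scaling to counts outside ribosomal protein genes gave 36 in place of 46 in WT brain against blood, a shift that all genes shared (the median of all tested genes went from 0.02 to -0.01 and that of members from 0.01 to -0.02), and the RLE factors gave 42 in place of 35 in APP-PS1 against WT blood. No paired analysis was possible because the labels give only library codes and no tie between libraries; the replicate numbers in the text are in accession order and pair nothing. At these depths a member near the filter rests on few counts per library, such as 3 to 5 for Rps27l in APP-PS1 blood.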
